A study of Mus musculus with 4 samples.

Results

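Messenger RNA processing turns a new transcript into a finished message. The spliceosome, a machine of small nuclear ribonucleoproteins (snRNPs, particles of small nuclear RNA and protein) and many other proteins, cuts out introns and joins exons. SR proteins, rich in arginine and serine, mark exons for it, and other enzymes cut the 3′ end and add a poly(A) tail. The nail matrix is the dividing epithelium that builds the nail plate. The proximal matrix is covered by the nail fold, and the distal matrix borders on the nail bed.

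The genes described here are the 31 mRNA processing and splicing genes in a list of 1133 named genes that the authors had drawn up for fold change between the proximal and the distal matrix. The genes were thus chosen by the authors' own proximal against distal fold, which had to be at least 1.99, and by annotation. A gene was taken if the list gave its probe set 1 symbol and annotated it with the biological process term mRNA processing or RNA splicing. Where a gene had several probe sets (sets of short oligonucleotides designed against the same transcript), the brightest stood for it. All 31 carried the term mRNA processing, and 26 of them also carried RNA splicing. The 5 without the second term were Slbp, Papola, Sf3b2, Rbm25 and Fip1l1.

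The study dissected both regions from intact matrix of mice aged 8 weeks and hybridised their total RNA to Affymetrix expression arrays, 2 for the proximal and 2 for the distal matrix. Sex, strain and the number of animals per array were not among the labels, which number the arrays of each region 1 and 2. Any p-value therefore rests on the spread between arrays of a region, whose source, animals or handling, is not stated. The number of arrays limits the precision of every value.

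All values are intensities in arbitrary units, or differences of log2 intensity, proximal minus distal, with limma's standard error (SE, n = 2 arrays per region). The program limma, used for the tests, draws the spread of each probe set toward that of probe sets of like brightness. Its standard errors and p-values therefore do not measure the spread of a gene's own arrays alone. Median intensities lay between 41.6 and 55.7 over the 4 arrays. A level was called above background when it exceeded the highest Bacillus subtilis control probe set of its array, which lay between 45.4 and 96.8. The Gapdh control for RNA length, its 3′ over its 5′ intensity, did not separate the regions, with 7.73 and 8.15 on the proximal and 9.40 and 6.73 on the distal arrays. Its 3′ intensity was thus several times its 5′ intensity on every array. The same ratio of the Actin control was 0.56 and 0.64 on the proximal and 0.52 and 0.59 on the distal arrays. The controls disagreed, so they do not show that the RNA was intact. Of 13 markers of nail matrix and keratinocytes 6 could be named, 4 with higher means in the proximal and 2 in the distal matrix. The keratins among them, Krt1, Krt15, Krt17 and Krt42, were above background on all 4 arrays. Krt15 had 2306 and 2372 on the proximal and 612 and 907 on the distal arrays, and Krt42 had 731 and 1415 on the proximal and 8877 and 12310 on the distal arrays. Krt1 was also higher in the distal matrix, with 2495 and 2459 on the proximal and 5942 and 5742 on the distal arrays. Krt17, Hoxc13 and Lef1 had higher means in the proximal matrix, and Lef1 was not above background on distal replicate 2. Of 7 fibroblast markers 1 could be named, Dcn, with 984 and 1049 on the proximal and 243 and 310 on the distal arrays. Of 27 markers of endothelial, immune, pigment, nerve, bone, muscle, fat and blood cells, 0 could be named. Names came only from the authors' list, so a marker at like levels in both regions could not be named. These counts therefore do not show which cells were present. The part of fibroblast RNA in the results was not tested. In dissected tissue, fewer cells of a type and less RNA per cell cannot be told apart.

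Of the 31 genes, 28 had a higher mean in the proximal matrix and 3, Fip1l1, Usp39 and Snrnp40, in the distal matrix. The median log2 difference was 1.26. On the distal arrays Lsm1 and Snrpd3 were not above background, and with Lsm1 at its bound and Snrpd3, which has none, left out the median of 30 genes was 1.19. Among genes above background on 1 or 2 arrays of each region, the differences ran from -1.52 for Fip1l1 to 2.55 for Sf4. That of Sf4 rested on distal replicate 1, which was not above background, and was -0.35 without that array. Over all 45037 probe sets, 52.0% had a higher mean in the proximal matrix and the median difference was 0.06. Over the other 1102 listed genes the share was 67.7% and the median 0.92. Since the authors picked every one of these genes for a difference between the same regions, the sizes and directions are descriptions and support nothing by themselves.

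The proximal arrays both lay above the distal arrays for 22 of the 31 genes, and below them for 2, Fip1l1 and Snrnp40. The same held for 18.3% and 16.4% of all probe sets, and for 52.5% and 20.4% of the other listed genes. No gene of the 31 passed limma at a Benjamini-Hochberg adjusted p under 0.05, where 0.0666% of all probe sets did (30 in all, 6 higher in proximal and 24 higher in distal matrix). The lowest adjusted p among the 31 was 0.550, for Fip1l1. In simulated data limma recovered 4% of log2 differences of 1 and 38% of 2. A count of 0 therefore does not show equal levels. At an unadjusted p under 0.05 limma found 16 of the 31, 15 of them higher in the proximal matrix, against 5.09% of all probe sets (2.86% higher in the proximal matrix) and 47.0% of the other listed genes. The count of 0 was 10 without distal replicate 1 and 5 without distal replicate 2, in fits that called 899 and 635 probe sets in all. Such fits assume that the lone distal array varies as the proximal arrays do. Beside the 6 proximal and 24 distal calls, limma made 3 proximal and 6 distal calls under quantile normalization, 2 and 6 under median centring, and 9 and 2 with arrays scaled to hybridization controls.

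**Figure D1:**
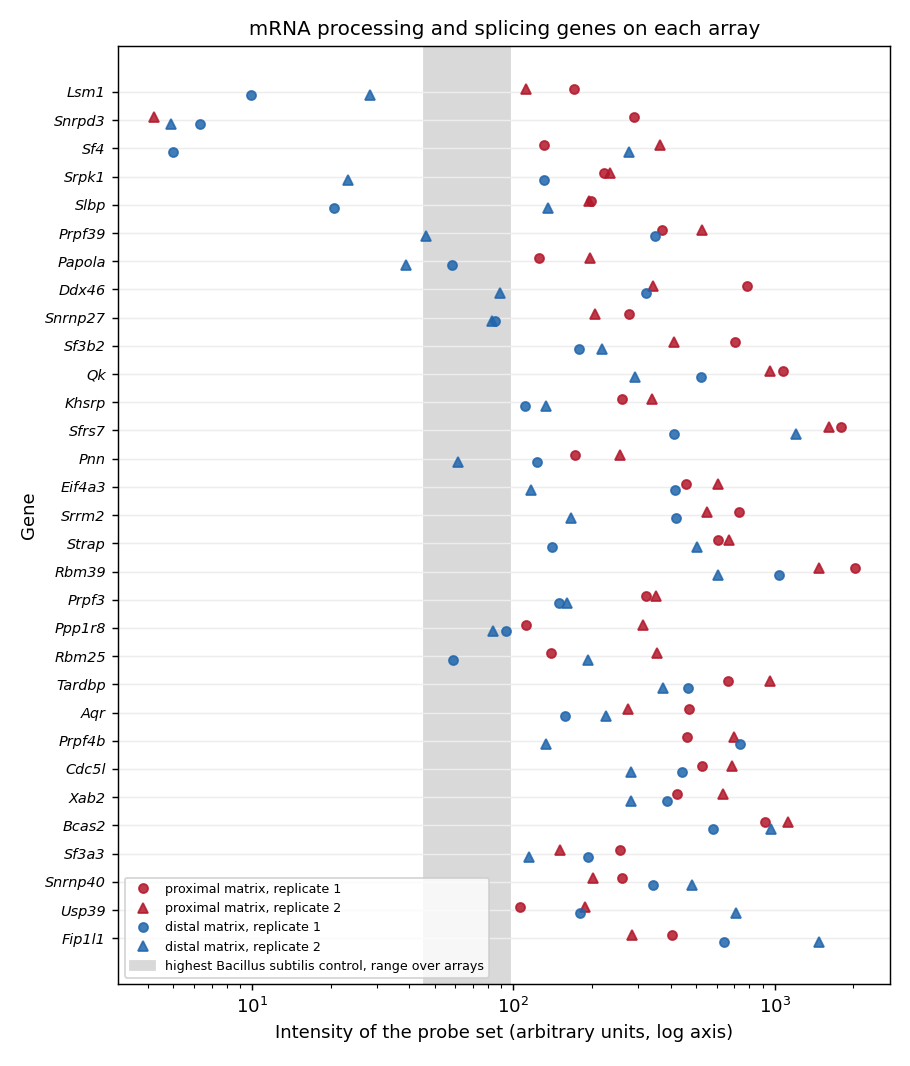
Intensity (log axis) of each of the 31 genes on the 2 proximal arrays (red) and the 2 distal arrays (blue), with genes ordered by the difference between regions. The 28 upper genes have higher means in the proximal matrix, and the grey band spans the highest Bacillus subtilis control over the 4 arrays, 45.4 to 96.8.

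Most of the genes were above background in both regions. Of the 31, 23 were above background on all 4 arrays, compared with 51.1% of the other listed genes and 22.6% of all probe sets. The exceptions were Lsm1, Snrpd3, Sf4, Srpk1, Slbp, Prpf39, Papola and Pnn. Some of the 23 passed narrowly, such as Rbm25 (58.5 against 58.0 on distal replicate 1) and Snrnp27 (82.9 against 81.0 on distal replicate 2). Among the 23, 20 had a higher mean in the proximal matrix, with a median difference over the 23 of 1.08. Median intensities of the 31 genes were 369 and 350 on the proximal arrays and 180 and 167 on the distal arrays.

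The distal arrays disagreed with each other more than the proximal arrays did. The brighter distal array exceeded the dimmer by a median of 1.80-fold over the 31 genes, and the brighter proximal array exceeded the dimmer by 1.43-fold. For all probe sets these ratios were 2.30 and 1.99. Log2 intensities over all probe sets correlated at 0.721 between the proximal arrays and at 0.669 between the distal arrays. Between arrays of different regions the correlations ran from 0.662 to 0.721. The distal arrays were thus less alike than the closest pair across regions. Of the 28 genes with higher proximal means, 16 had their lowest value on distal replicate 2, 11 on distal replicate 1, and Snrpd3 on proximal replicate 2. In 14 genes the distal arrays differed by more than the regions did, and in 4 the proximal arrays did.

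**Figure D2:**
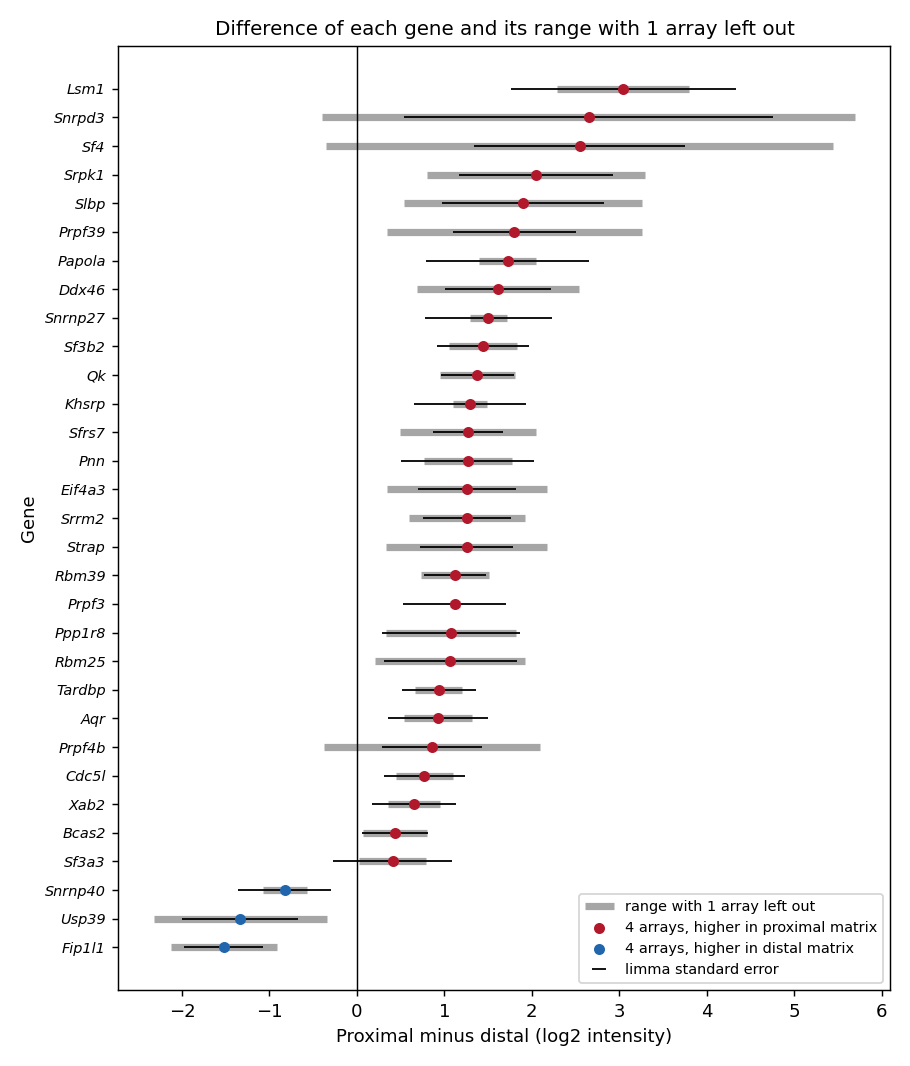
Difference between regions (proximal minus distal, log2 intensity) for each of the 31 genes, with limma's standard error as a thin line and the range of the difference with 1 array left out as a grey bar. The bars of Snrpd3, Sf4 and Prpf4b cross 0, and those of Prpf3, Khsrp, Snrnp27 and Snrnp40 are the narrowest. The values of Lsm1 and Snrpd3 are set against distal levels that were not above background.

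Promoter sequences of RefSeq (assembly GRCm38.p6) were matched by gene identifier for 28 of the 31 genes. Lsm1, Snrnp40 and Usp39 had no entry. The windows of 300 bases, 250 before and 50 after the start of the gene, were rich in G and C, with a median of 61.3% over these genes, 63.0% over 818 other listed genes and 52.7% over 27025 genes. 5 windows are shown in part, 150 bases up to the start. They are those of Qk, Sfrs7, Prpf3, Khsrp and Fip1l1. The regions of Qk and Sfrs7 lay apart by more than 2 standard errors, as did those of Ddx46, Sf3b2 and others of the 31. The distal arrays of Sfrs7 differed by 2.95-fold, more than its regions did (2.41-fold). The arrays of Prpf3 and Khsrp within a region lay close together, and Fip1l1 had the lowest difference. Capitals mark a GC box (GGGCGG) or a CCAAT box (CCAAT), read on either strand.
Qk, chr17:10319362-10319511, minus strand: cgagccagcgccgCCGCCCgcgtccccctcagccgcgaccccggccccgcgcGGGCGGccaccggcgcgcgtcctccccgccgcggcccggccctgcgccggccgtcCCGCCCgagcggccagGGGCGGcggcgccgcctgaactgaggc
Sfrs7, chr17:80207306-80207455, minus strand: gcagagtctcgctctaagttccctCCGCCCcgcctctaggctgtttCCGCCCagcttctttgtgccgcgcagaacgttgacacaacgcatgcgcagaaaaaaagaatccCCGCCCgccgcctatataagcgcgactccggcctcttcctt
Prpf3, chr3:95855886-95856035, minus strand: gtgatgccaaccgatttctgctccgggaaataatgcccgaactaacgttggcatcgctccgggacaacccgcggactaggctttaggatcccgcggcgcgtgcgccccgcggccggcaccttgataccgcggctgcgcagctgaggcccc
Khsrp, chr17:57031508-57031657, minus strand: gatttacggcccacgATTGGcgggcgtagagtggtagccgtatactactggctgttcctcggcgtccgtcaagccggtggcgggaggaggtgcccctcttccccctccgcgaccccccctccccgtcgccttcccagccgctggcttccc
Fip1l1, chr5:74535341-74535490, plus strand: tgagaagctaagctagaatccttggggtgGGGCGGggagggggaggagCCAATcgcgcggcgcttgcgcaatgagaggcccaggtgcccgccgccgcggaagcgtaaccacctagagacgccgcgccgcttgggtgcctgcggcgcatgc

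The 7 motifs below were searched on both strands of the 28 full windows, and no motif contains another. The GC box GGGCGG was in 16 of 28, or 57.1%, against 68.6% of other listed genes and 35.9% of all genes. The CCAAT box was in 10 (35.7%), against 35.8% and 37.9%. The ETS motif CCGGAAG was in 9 (32.1%), against 20.3% and 9.12%, and the CRE motif TGACGTCA was in 3 (10.7%), against 4.03% and 1.88%. The E box CACGTG was in 3 (10.7%), against 10.4% and 7.24%. The TATA box TATAAA and the YY1 motif AAGATGGC were in 1 window each (3.57%), those of Rbm25 and Sf4. The TATA box was in 7.58% of other listed genes and 14.2% of all genes, and the YY1 motif in 6.11% and 2.88%. These matches describe letters, and no binding was measured.

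The SR proteins and SR protein kinases in the chosen set all had higher means in the proximal matrix. Genes of these families outside the authors' list could not be named, so their levels were not examined. Sfrs7 (now Srsf7), an SR protein that binds exons and also serves in mRNA export, had 1787 and 1617 on the proximal arrays and 411 and 1211 on the distal arrays. Both proximal arrays exceeded both distal arrays, and distal replicate 1 was the low one (1.27 ± 0.40, and 0.49 to 2.05 with 1 array left out). Srrm2, a large scaffold protein of nuclear speckles, had 728 and 552 on the proximal arrays and 421 and 167 on the distal arrays (1.26 ± 0.50, and 0.59 to 1.93 with 1 array left out), with distal replicate 2 the lowest. Pnn, pinin, is both a nuclear speckle protein and a protein found at desmosomes, the junctions that hold keratinocytes together. It had 172 and 255 in the proximal matrix and 123 and 61.2 in the distal matrix (1.27 ± 0.76, and 0.76 to 1.77 with 1 array left out), where distal replicate 2 was not above background. For all 3 genes both proximal arrays lay above both distal arrays.

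Srpk1, a kinase that phosphorylates SR proteins in the cytoplasm and so lets them enter the nucleus, had 222 and 235 in the proximal matrix and 131 and 23.2 in the distal matrix. The proximal arrays were close together and the distal arrays were not. Distal replicate 2 was not above background, and the difference of 2.05 ± 0.88 was 0.80 without it. Prpf4b, a kinase of spliceosomal proteins, had 462 and 700 in the proximal matrix and 737 and 133 in the distal matrix. Its regions overlapped, and its difference of 0.86 ± 0.57 turned to -0.37 without distal replicate 2.

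Among the snRNP proteins and related Sm-like proteins in the chosen set, 3 of 4 genes had higher means in the proximal matrix. Snrnp27, a protein of the particle that joins the snRNPs of U4, U6 and U5, had 276 and 205 in the proximal matrix and 84.7 and 82.9 in the distal matrix. The groups did not overlap, and the difference of 1.50 ± 0.73 stayed between 1.29 and 1.72 with any 1 array left out. Its second probe set had 301 and 148 in the proximal matrix and 146 and 5.0 in the distal matrix, a difference of 2.96 that rested on distal replicate 2, which was not above background. Lsm1, a subunit of the cytoplasmic ring that starts mRNA decapping, had 171 and 112 in the proximal matrix. On the distal arrays it had 9.9 and 28.3, not above background, so its proximal level was at least 2.02-fold higher.

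Snrpd3, a core protein of the snRNP ring (Sm protein), had 289 and 4.2 in the proximal matrix and 6.3 and 4.9 in the distal matrix. Only proximal replicate 1 was above background, so its difference has no measured size, and without that array no value was above background. Snrnp40, a protein of the U5 particle, went the other way, with 261 and 202 in the proximal matrix and 342 and 483 in the distal matrix. Its groups did not overlap and its difference was -0.82 ± 0.53.

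Sf3b2 and Sf3a3, the subunits of the U2 particle in the chosen set, both had higher means in the proximal matrix. Sf3b2 had 702 and 410 in the proximal matrix and 179 and 218 in the distal matrix, a difference of 1.44 ± 0.52 with no overlap. Its second probe set had 117 and 45.6 in the proximal matrix and 44.5 and 7.3, not above background, in the distal matrix, so it was at least 1.06-fold higher. Sf3a3 had 257 and 151 in the proximal matrix and 193 and 115 in the distal matrix, which overlapped (0.41 ± 0.68, and 0.03 without proximal replicate 1 or without distal replicate 2). Ddx46, the helicase that helps this particle onto the branch site, had 780 and 343 in the proximal matrix and 322 and 88.8 in the distal matrix. Its proximal replicate 2 and distal replicate 1 lay close, and the difference of 1.61 ± 0.61 was 0.69 without distal replicate 2.

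Prpf3, of the particle of U4 and U6, was the gene with the steadiest values: 323 and 350 in the proximal matrix and 150 and 160 in the distal matrix. The 2.17-fold difference (1.12 ± 0.59) stayed between 1.06 and 1.18 with any 1 array left out, the narrowest range of the 31. Prpf39, named for a yeast protein of the U1 particle, had 369 and 528 in the proximal matrix and 347 and 46.2 in the distal matrix. The arrays did not overlap by a narrow margin, and without distal replicate 2, which was not above background, the difference of 1.80 ± 0.70 was 0.35. Usp39, a protein with a ubiquitin protease fold that helps assemble the tri-snRNP, had 106 and 189 in the proximal matrix and 180 and 709 in the distal matrix. Its regions overlapped, and the difference of -1.34 ± 0.66 was -0.34 without distal replicate 2.

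Members of the complexes that join the spliceosome as it becomes active had differences of 0.44 to 1.26. Cdc5l had 528 and 687 in the proximal matrix and 442 and 281 in the distal matrix (0.77 ± 0.46, and 0.44 without distal replicate 2). Bcas2, its partner in the Prp19 complex, had 920 and 1119 in the proximal matrix and 582 and 967 in the distal matrix (0.44 ± 0.38, and 0.07 without distal replicate 1). Cdc5l did not overlap between regions and Bcas2 did. Aqr, an RNA helicase that binds introns, had 469 and 275 in the proximal matrix and 158 and 226 in the distal matrix (0.92 ± 0.57, and 0.54 without proximal replicate 1). Xab2, which works with Aqr and also in DNA repair, had 422 and 634 in the proximal matrix and 386 and 281 in the distal matrix (0.65 ± 0.48, and 0.36 without proximal replicate 2). Its second probe set gave 0.62, but both had to pass the authors' fold limit to be listed. Eif4a3, the helicase that anchors the exon junction complex on spliced mRNA, had 458 and 608 in the proximal matrix and 416 and 117 in the distal matrix (1.26 ± 0.56, and 0.34 without distal replicate 2).

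The other RNA-binding splicing factors in the chosen set also had higher means in the proximal matrix. Rbm39, a relative of the splicing factor U2AF, had 2035 and 1475 in the proximal matrix and 1041 and 606 in the distal matrix (1.12 ± 0.35, and 0.73 without distal replicate 2). All 4 of its listed probe sets were higher in the proximal matrix, with no overlap and differences of 1.06 to 1.33. Each had to pass the authors' fold limit to be listed, so their likeness supports nothing by itself. Rbm25 had 140 and 354 in the proximal matrix and 58.5 and 193 in the distal matrix, which overlapped (1.07 ± 0.76, and 0.21 without distal replicate 1). Sf4 (now Sugp1), another splicing factor, had 131 and 363 in the proximal matrix and 5.0 and 277 in the distal matrix. Its difference of 2.55 came from distal replicate 1, which was not above background, and without that array it was -0.35.

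The regulators in the set that act on particular messages followed the same direction. Qk, quaking, an RNA-binding protein known for splicing of messages of myelin and muscle, had 1076 and 957 in the proximal matrix and 524 and 291 in the distal matrix. The groups did not overlap, and the difference was 1.38 ± 0.42, and 0.95 without distal replicate 2. Its distal arrays differed by 1.80-fold. Khsrp, which binds AU-rich sequences and takes part in splicing and mRNA decay, had 261 and 340 in the proximal matrix and 111 and 133 in the distal matrix (1.29 ± 0.64, between 1.10 and 1.49 with 1 array left out). Tardbp, the RNA-binding protein known as TDP-43, had 661 and 955 in the proximal matrix and 464 and 373 in the distal matrix (0.93 ± 0.42). Neither Khsrp nor Tardbp overlapped between regions. The probe sets of Khsrp, Xab2 and Usp39 are of a type (suffix x) whose oligonucleotides may also match other transcripts. So are the second probe set of Xab2 and some of the further ones of Rbm39.

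The 3′ end machinery held genes of both directions. Papola, the poly(A) polymerase, had 126 and 197 in the proximal matrix and 58.3 and 38.9 in the distal matrix (1.72 ± 0.93), where 1 of 2 arrays was above background. Slbp, which binds the stem-loop at the end of histone messages in place of a tail, had 199 and 195 in the proximal matrix and 20.5 and 136 in the distal matrix. The difference of 1.90 ± 0.93 was 0.53 without distal replicate 1, which was not above background. Fip1l1, a subunit of the cleavage and polyadenylation complex, had 404 and 283 in the proximal matrix and 638 and 1479 in the distal matrix. Its groups did not overlap, its difference was -1.52 ± 0.45, and without distal replicate 2 it was -0.92.

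Strap and Ppp1r8 were the members outside these roles. Strap, a protein that works with the complex assembling snRNPs, had 607 and 667 in the proximal matrix and 141 and 505 in the distal matrix (1.26 ± 0.53, and 0.33 without distal replicate 1). Ppp1r8, a nuclear inhibitor of protein phosphatase, had 112 and 314 in the proximal matrix and 94.0 and 83.7 in the distal matrix (1.08 ± 0.79, and 0.34 without proximal replicate 2). Both were without overlap, with distal replicate 1 low for Strap and proximal replicate 2 high for Ppp1r8.

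In the authors' deposited table the 31 genes had the same directions as in the value table. Its folds ran from 1.996 for Sf3a3 to 3.82 for Snrpd3, with a median of 2.38 in the authors' deposited table. Members just above its limit of 1.99 included Sf3a3 (1.996), Tardbp (2.02), Xab2 (2.04) and Eif4a3 (2.04) in the authors' deposited table. Genes below the limit are not analysed here. In the value table, 8 of the 31 had a fold under 1.99. Sf4, not above background on distal replicate 1, had a log2 difference of 2.55 in the value table and 1.24 in the authors' deposited table, and Rbm25 had 1.07 in the value table and 1.87 in the authors' deposited table.

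**Figure D3:**
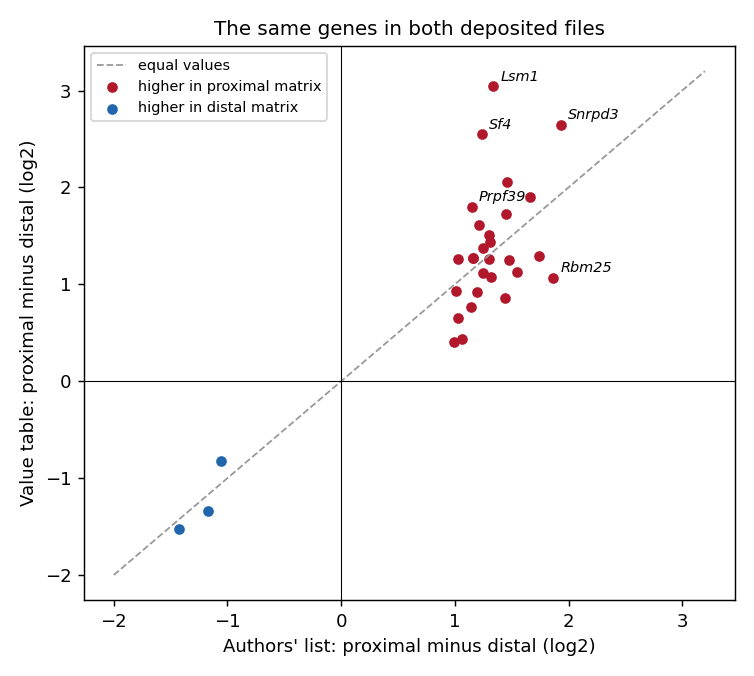
Difference between regions (proximal minus distal, log2) of the 31 genes in the authors' list (horizontal axis) and in the deposited value table (vertical axis), with the dashed line marking equal values. All points lie in the same direction on both axes, and Lsm1, Snrpd3, Sf4 and Prpf39 lie far above the line while Rbm25 lies below it. Lsm1 and Snrpd3 rest on distal values not above background on both arrays, and Sf4 and Prpf39 on 1 such value each.

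The annotation outside the rule's own terms was also read. All 31 genes were annotated to the nucleus, against 31.3% of the other listed genes. The spliceosome was named for 15 of them, and 1 of the other 1102 listed genes, and nuclear speck for 7, all higher in the proximal matrix. RNA binding was named for 15 of the 31, or 48.4%, against 3.81% of the other listed genes. Helicase activity was named for 2 and kinase activity for 3, all with higher proximal means. A set chosen for splicing terms is bound to share these annotations.

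The same machinery has genes outside the 31. Of 359 symbols in 10 lists of splicing, 3′ end, export and decay genes, 43 were in the authors' list, 29 of them members and 14 others. Of the 14 others, 10 had higher means in the proximal and 4 in the distal matrix, and 0 passed limma in either direction. Among all 1102 other listed genes 67.7% had higher proximal means and 1.72% passed limma, against 52.0% and 0.0666% of all probe sets. The authors picked these genes too for their fold between the same regions, so the directions support nothing by themselves. In the exon junction, export and decay list all 4 were higher in the proximal matrix. Thoc2, of the complex that couples transcription to export, had 315 and 286 in the proximal matrix and 70.4 and 250 in the distal matrix (1.18 ± 0.67, and 0.27 without distal replicate 1). Cnot6, a deadenylase, had 299 and 304 in the proximal matrix and 169 and 186 in the distal matrix (0.77 ± 0.59). Dcp2, the enzyme that removes the cap of messages, had 207 and 88.6 in the proximal matrix and 3.9 and 7.9, not above background, in the distal matrix, so it was at least 1.98-fold higher. Smg1, a kinase of nonsense-mediated decay, overlapped between regions (0.31 ± 0.60) and was at -0.92 without distal replicate 2.

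Son, a speckle protein with SR repeats, had 582 and 592 in the proximal matrix and 271 and 230 in the distal matrix (1.23 ± 0.48). Hnrnpd, a protein that binds AU-rich messages, had 387 and 274 in the proximal matrix and 99.5 and 185 in the distal matrix (1.26 ± 0.63, and 0.82 without distal replicate 1). Ddx17, a helicase of many RNA steps, went the other way, with 765 and 929 in the proximal matrix and 2428 and 1344 in the distal matrix (-1.10 ± 0.35, and -0.67 without distal replicate 1). Fam50a also had a lower proximal level, at 129 and 94.9 in the proximal and 259 and 312 in the distal matrix (-1.36 ± 0.66), while Rnpc3, of the minor spliceosome, was at 1.15 ± 0.69, and at 0.46 without proximal replicate 2. Snrnp70, the U1 protein, had 40.8 and 82.4 in the proximal matrix and 1051 and 43.5 in the distal matrix, so that distal replicate 1 alone made its -1.88, which was 0.41 with that array left out. Proximal replicate 1 and distal replicate 2 were not above background for it. Among 3′ end genes, Rbbp6 was at 0.77 ± 0.54, Cpeb2 at 0.56 ± 0.47 and Sympk at -0.92 ± 1.05, of which Rbbp6 did not overlap between regions. Cpeb2 was at 0.03 without distal replicate 1. Sympk was at 0.80 without proximal replicate 2, which was not above background, and the authors' deposited table has it higher in the proximal matrix, with a fold of 1.99. The other 13 of the 14 genes had the same direction in the value table and in the authors' deposited table. Rnf113a2 was at 0.53 ± 0.51, and at -0.20 without distal replicate 1.

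**Figure D4:**
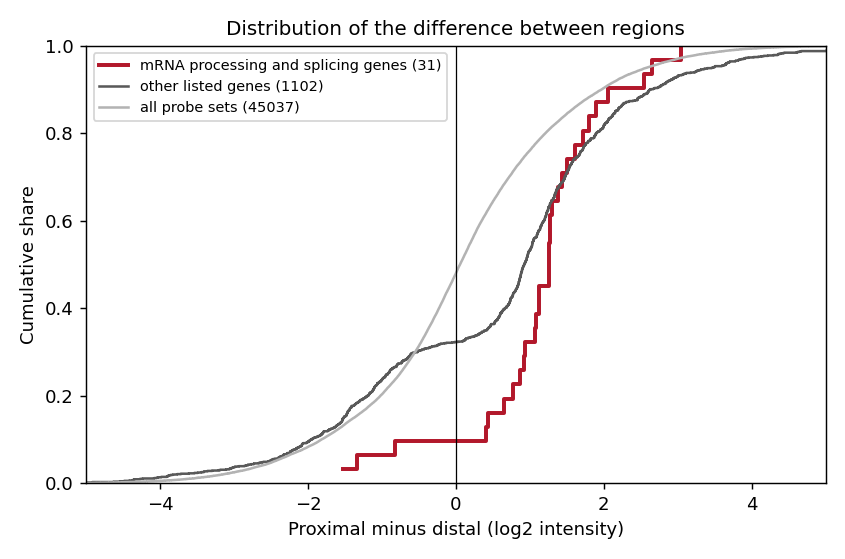
Cumulative share of genes or probe sets (vertical axis) up to each difference between regions (proximal minus distal, log2 intensity, horizontal axis, cropped at 5 on both sides) for the 31 genes, the other 1102 listed genes and all 45037 probe sets. The curve of the 31 genes crosses 0 with 3 genes below it, whereas 67.7% of the other listed genes and 52.0% of all probe sets lie above 0.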

How the data were processed

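The values are linear intensities of probe sets from the deposited value table. The sources used here do not say how the authors summarised and scaled them, but every array has a trimmed mean of 150.0 (2% off each end). The authors' deposited list was made in a guided workflow for Mouse430_2 arrays, per the file headers. It took the distal matrix as control and kept probe sets above a fold of 1.99 with no effective limit on p. Its fold is unsigned, with the direction in its own column, and the column of each region holds log2 values of the authors. Gene names come from that list alone. Of its 1435 gene probe sets, 1234 had 1 symbol, 50 several and 151 none. Per the labels' protocols, extraction used Trizol and the labelling kit works from the 3' end.

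A floor of 1 was set on intensities before log2. For the 45037 probe sets other than controls, limma (version 3.58.1, R 4.3.3) gave a two-sided test with lmFit, eBayes and a variance trend, Benjamini-Hochberg adjustment and a threshold of 0.05. On simulated arrays it recovered 4% of log2 changes of 1, 38% of 2, 74% of 3 and 80% of 4. Their spread was set by brightness alone, each size had 50 changed bright probe sets, and 3 unchanged ones were called. A fold against a region not above background on either array is a bound against the Bacillus subtilis controls (27 probe sets). This rule, the members and the lists were chosen with earlier results of these data known. Every gene passing limma, the 12 largest non-overlapping differences per direction and the members of 5 role lists were to be given by array; the other members were added after their values were seen. Alternatives were other scalings, an offset of 16, no trend, brighter probe sets, the replicate block, each array left out, mean probe sets and the authors' log2 values. 1 probe set with several symbols was left out.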

Additional observations from a re-analysis of the deposited data

How the results depend on the processing

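The count of 28 genes with a higher proximal mean was 28 under each scaling, offset, block and probe set choice and with the authors' log2 values, 27 of 30 among brighter probe sets and 20 of 23 among genes above background on all 4 arrays (added after seeing the data). With 1 array left out it was 27 or 28. The genes whose direction turned were Snrpd3 (-0.40 to 5.70), Sf4 (-0.35 to 5.44) and Prpf4b (-0.37 to 2.10), each with 1 array left out; the other 28 kept theirs under all alternatives run. Every value of Snrpd3 but that of proximal replicate 1, and that of Sf4 on distal replicate 1, lay below background, so both ends of the range for Snrpd3 and the upper end for Sf4 are no measured sizes. The median difference of 1.26 was 1.78 with hybridization control scaling, where the median of all probe sets moved to 0.57 and the genes lay 1.20 above it, as they did in the values as deposited (1.20 above 0.06). It was 1.18 with an offset of 16, 1.08 among genes above background on all arrays, 1.19 with bounds in place of levels below background (also added after seeing the data; 27 of 30 genes higher) and 0.80 to 1.20 with 1 array left out. The 0 genes passing limma became 0 to 10 with 1 array left out. The 30 probe sets called became 9 under quantile normalization, 8 under median centring, 11 with hybridization control scaling, 2 among brighter probe sets, 17 with an offset of 16, 0 without the variance trend and 4 to 899 with 1 array left out. With the replicate block it was 90, and it called 0 of the 31. The labels do not say whether same-numbered arrays belong together. Deviations of same-numbered arrays from their region means correlated at -0.01 over all probe sets. On each array most probe sets were not above background, so this value does not settle whether the arrays were paired.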

Other observations

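One further probe set with the term mRNA processing or RNA splicing carries several symbols, among them Lsm6, a protein of the ring of the U6 particle, and was left out of the 31. It had 331 and 385 on the proximal arrays and 20.8 and 53.6 on the distal arrays, where neither value was above background. In the authors' deposited table it was 3.50-fold higher in the proximal matrix.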
